A study of Mus musculus with 42 samples.

Results

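The regions described here are HOXC10 binding sites with no called HOXC9 event within 100 bp, named sites without HOXC9 for short. They were chosen by their own readout: from the top 10000 HOXC10 events at day 3, ranked by estimated HOXC10 ChIP reads on chromosomes 1 to 19 and X, those with no HOXC9 event of any rank within 100 bp were kept. An event is a binding position called from ChIP-seq reads. The rule kept 504 sites, 5.04% of the 10000, and the other 9496 events (sites with HOXC9) are the comparison throughout. The HOXC10 read counts and the absence of a HOXC9 event are therefore given only as a description. HOXC9 reads at these positions were not compared, so a site without a HOXC9 event can still have HOXC9 signal.

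The study asked how Hox proteins that pattern the spinal cord select their sites. Mouse embryonic stem cells of Ainv15 lines, each with 1 inducible Hox transgene, were grown as embryoid bodies (EBs), and retinoic acid and SAG, a smoothened agonist, were given to pattern them as spinal motor neurons. Doxycycline (Dox) was added on day 2, and cells were fixed at day 3 after 24 h of Dox or at day 4 after 48 h. HOXC10 (3 libraries) and HOXC9 (2 libraries) at day 3 define the sites, and 19 other lists describe them. At day 3 these are HOXC6, HOXC8, HOXA9, HOXD9 and HOXC13 (2 libraries each), 4 HOXC10 and HOXC13 chimeras (2 each) and MEIS in iHoxc6, iHoxc9 and iHoxc10 cells (1 each). At day 4 they are HOXC6 and HOXC9 (2 each), HOXC10 (4) and PBX in iHoxc9 and iHoxc10 cells (1 each), and HOXC6 and HOXC9 (2 each) were also assayed in EBs given 12 h of Dox and no patterning signal. Every transgene sat as a single copy at the HPRT locus under a Dox promoter, and the HOXC13 cDNA was human. Most HOX libraries were made with a Flag antibody, but the first HOXC10 library came from a V5-tagged line with another antibody, the second HOXA9, HOXD9 and HOXC13 libraries used HA, and the MEIS lines carried V5 tags.

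Hox proteins are homeodomain transcription factors that are expressed in overlapping domains along the head-to-tail axis. In the spinal cord HOXC6 marks brachial, HOXC9 thoracic and HOXC10 lumbar motor neurons. The central proteins HOXC6 and HOXC8 favour sites with TAAT, posterior proteins such as HOXC9 and HOXC10 favour TTTAT, and HOXC13 also uses TTTAC. MEIS and PBX are homeodomain cofactors that bind DNA together with Hox proteins.

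Windows that reach 50 bp to each side of 8 HOXC10 events show the sites at the level of DNA. The first 5 are those with the most HOXC10 reads that held TTTAT on either strand, and the last 3 those with the most reads that held neither TTTAT, TAAT nor TTTAC. Sequences are the plus strand of RefSeq's GRCm38 (mm10), and capitals mark TTTAT or its reverse complement ATAAA.
Robo2 intron, chr16:74277098-74277198: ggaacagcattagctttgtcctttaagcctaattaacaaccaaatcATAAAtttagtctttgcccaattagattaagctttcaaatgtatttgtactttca
Fto intron, chr8:91662055-91662155: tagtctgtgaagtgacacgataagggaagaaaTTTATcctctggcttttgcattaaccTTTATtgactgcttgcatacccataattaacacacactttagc
Intergenic near Api5, chr2:94732933-94733033: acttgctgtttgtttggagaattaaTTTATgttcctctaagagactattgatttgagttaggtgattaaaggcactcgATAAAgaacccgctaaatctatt
Intergenic near Cdh20, chr1:104496459-104496559: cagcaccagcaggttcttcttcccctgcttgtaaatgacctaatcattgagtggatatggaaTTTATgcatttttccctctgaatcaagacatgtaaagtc
Intergenic near Robo2, chr16:74796263-74796363: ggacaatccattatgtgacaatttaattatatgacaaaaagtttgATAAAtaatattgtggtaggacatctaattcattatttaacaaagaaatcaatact
Intergenic near Isl1, chr13:115751145-115751245: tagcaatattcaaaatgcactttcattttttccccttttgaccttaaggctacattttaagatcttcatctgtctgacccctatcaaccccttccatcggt
Intergenic near Bcl11a, chr11:24829551-24829651: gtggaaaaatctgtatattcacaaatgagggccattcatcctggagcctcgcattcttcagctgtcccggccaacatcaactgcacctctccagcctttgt
Intron near 3100002H09Rik, chr4:124415099-124415199: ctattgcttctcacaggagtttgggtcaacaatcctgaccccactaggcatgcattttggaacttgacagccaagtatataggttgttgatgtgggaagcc
The first 5 windows had 397.9, 360.2, 322, 321.3 and 297.7 estimated HOXC10 reads, and the last 3 had 412.7, 326 and 281. All of the first 5 also held TAAT, and the Fto and Api5 windows held TTTAT at 2 places each.

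The distance to the nearest HOXC9 event divided the sites into a flanked and a distant group. At 218 flanked sites (43.3%) the nearest HOXC9 event lay beyond 100 bp and up to 1000 bp away, and 129 of these had it within 200 bp. At 286 distant sites (56.7%) it lay over 1 kb away, at a median of 10869 bp and at most 287214 bp. Just inside the rule were sites 1 bp past the limit with 229.8, 160.7 and 131.3 HOXC10 reads, and just outside it events at 100 bp with 254.6, 158.8 and 147.5 reads. Of all 10000 events 8281 had a HOXC9 event within 10 bp, and the counts then fell from 330 events at 51 to 75 bp and 128 at 76 to 100 bp to 28 at 151 to 200 bp, so that no gap separated flanked sites from events inside the limit.

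**Figure D1:**
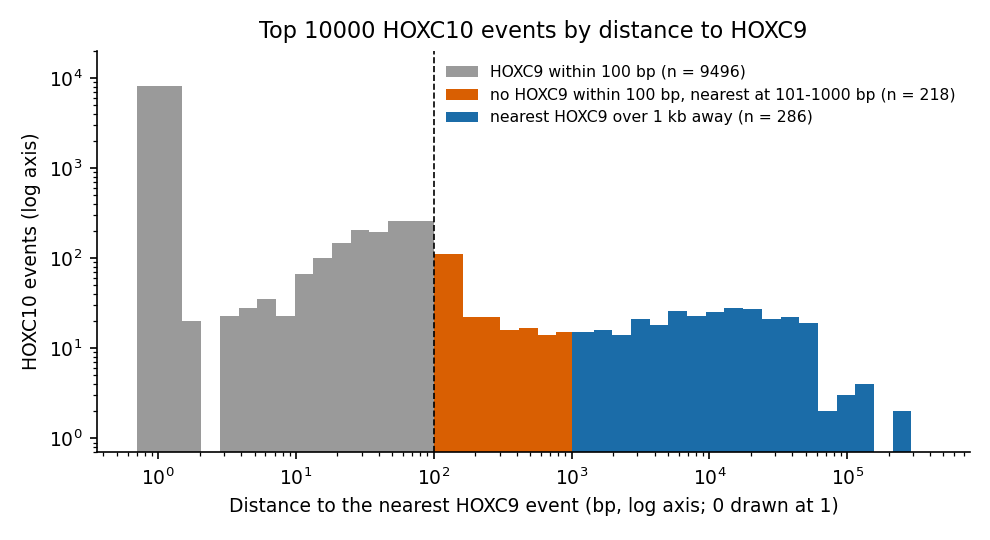
Histogram of the top 10000 HOXC10 events by the distance in bp to the nearest HOXC9 event, both axes logarithmic, with distances of 0 drawn at 1 and the limit of 100 bp as a dashed line. Most events sat on a HOXC9 event, and the 504 sites to the right of the line split into 218 flanked sites up to 1 kb and 286 distant sites beyond.

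At the flanked sites the neighbouring HOXC9 event had a median of 108.8 HOXC9 reads, against 94.5 over the whole HOXC9 list. Its median percentile in that list was 56.2. It was not compared with the HOXC9 events at sites with HOXC9. HOXC10 itself had another event within 100 bp of that HOXC9 position in 98 of 218 cases, and none in 120. Another HOXC10 event lay within 1 kb of 72.5% (95% Wilson interval 66.2 to 78.0) of flanked sites. The share was 30.5% (29.6 to 31.4) of sites with HOXC9 and 10.8% (7.74 to 15.0) of distant sites. These shares are a description, since the groups were set by distance after values were seen. The split also shapes them. Most top HOXC10 events had HOXC9 within 100 bp, so a site without HOXC9 that lay near one would mostly count as flanked. The shares therefore cannot tell clustering of HOXC10 from the split.

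The sites without HOXC9 ranked low in the HOXC10 list, as described by the values that chose them. They had 104.9 to 623.6 reads with a median of 130.95, and the sites with HOXC9 had a median of 165.25. The 1000 events with most reads held 7 of the 504, the 1000 with fewest held 99, and 395 lay among the lower 5000. The last site inside the rank limit and the first site without HOXC9 beyond it both had 104.9 reads. Binding and motif shares were also compared within the upper 5000 (109 sites without HOXC9, 4891 with) and the lower 5000 (395 and 4605).

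**Figure D2:**
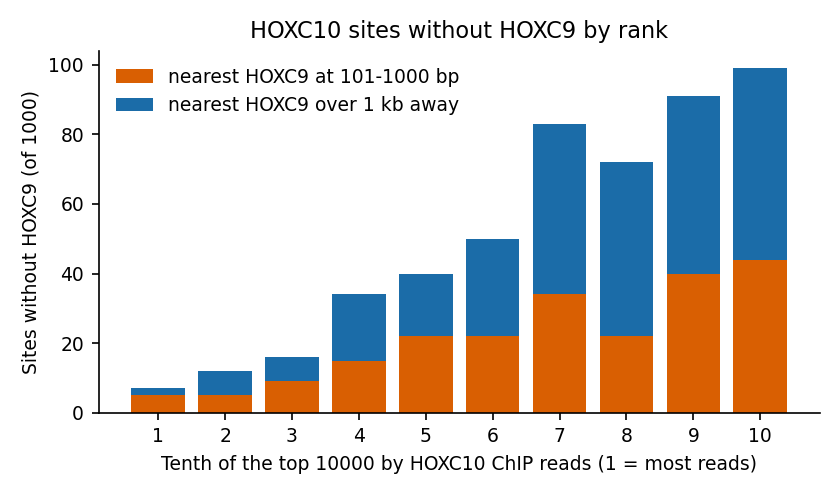
Number of HOXC10 sites without HOXC9 in each of 10 rank bins of 1000 events within the top 10000, ranked by estimated HOXC10 ChIP reads from most (1) to fewest (10), with flanked sites in orange and distant sites in blue. The count rises from 7 in bin 1 to 99 in bin 10, with a dip from 83 to 72 at bin 8, and both groups contribute to every bin.

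Each list pools its libraries, so no spread between differentiations and no test over samples could be had. Shares therefore carry 95% Wilson intervals. Differences (sites without HOXC9 minus sites with HOXC9) carry 95% Newcombe intervals in percentage points. Both kinds of interval cover counting error only and treat sites as independent. Of the sites without HOXC9, 111 lay in clusters of 2 or more within 100 kb, and 18 lay within 1 kb of another. The intervals can therefore be too narrow. Binding in fewer cells and weaker binding in each cell cannot be told apart in these bulk libraries. HOXC10 depth was uneven, at 5.04, 18.2 and 21.8 M reads, of which the caller assigned fractions of 0.017, 0.041 and 0.161 to signal. The HOXC9 list was longer (74085 events against 26873) and came from 26.8 and 25.6 M reads with fractions of 0.174 and 0.398. HOXC6, HOXC9, HOXC10, HOXA9, HOXD9 and HOXC13 were called against 1 control library, which they share. For the HOX and chimera lists the interval of the difference excluded 0 on the same side in both. The size moved by over 1.5 times among the lower 5000 for HOXC6 (-16.33 points, -20.62 to -11.61) and HOXC10:C13.1 (-11.14 points, -14.62 to -7.04), and among the upper 5000 for HOXC13:C10.2 (-1.57 points, -6.18 to -0.23).

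HOXA9 and HOXD9 belong to the same paralogue group as HOXC9, yet most sites without HOXC9 had an event of at least 1 of them. HOXD9 was present within 100 bp at 367 of 504 sites (72.8%, 68.8 to 76.5), beside 94.4% of sites with HOXC9 and 93.3% of all 10000. The difference was -21.60 points (-25.67 to -17.87). HOXA9 was present at 311 (61.7%, 57.4 to 65.8), beside 96.5% of sites with HOXC9 and 94.7% of all, a difference of -34.76 points (-39.09 to -30.60). Both proteins were present at 282 sites, 1 of the pair at 114 and neither at 108, so that 396 (78.6%) had at least 1, against 98.3% of sites with HOXC9.

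Where HOXA9 or HOXD9 was present, its event was mostly called at the same position, with a median offset of 0 bp. Both lists were called in a joint run with HOXC10, which favours shared positions. HOXC6 and HOXC13, from the same joint run, also had a median offset of 0 bp at sites without HOXC9. HOXC8, HOXC13:C10.2 and day 4 HOXC10, not named in that run, had medians of 22, 15 and 19 bp. The part of joint calling in the offset of 0 bp was not tested. The HOXA9 or HOXD9 event was weaker within its own list than at sites with HOXC9. The median HOXD9 event stood at percentile 74.9 of the HOXD9 list by reads against 88.5, and the median HOXA9 event at 60.2 against 88.2. These percentiles were not matched for HOXC10 reads, which were lower at sites without HOXC9. When lists were limited to their 10000 best events, HOXD9 remained at 23.2% and HOXA9 at 5.75% of sites, against 61.8% and 58.0% of sites with HOXC9. Distant sites had HOXD9 at 77.6% and flanked sites at 66.5%.

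HOXC6 and HOXC8 were less frequent than at sites with HOXC9 as well. HOXC8 had an event at 307 sites (60.9%, 56.6 to 65.1), beside 80.0% of sites with HOXC9 and 79.1% of all, a difference of -19.12 points (-23.52 to -14.88). HOXC6 had an event at 137 (27.2%, 23.5 to 31.2), beside 53.1% and 51.8% of all, a difference of -25.90 points (-29.74 to -21.73). At 49 sites (9.72%) HOXC6 or HOXC8 was present with none of HOXA9, HOXD9 and HOXC13, a pattern found at 76 (0.8%) of sites with HOXC9.

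HOXC13, the most posterior protein assayed, was rare at sites without HOXC9 although its list was the longest of the day 3 full-length factors, with 115879 events. It was present at 45 sites (8.93%, 6.74 to 11.7), beside 3895 of 9496 sites with HOXC9 and 39.4% of all, a difference of -32.09 points (-34.49 to -29.11). At these 45 sites TTTAT was found in 66.7% of windows, and at the other 459 in 41.4%.

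The chimeras swap the homeodomain and C-terminus between HOXC10 and HOXC13. In the HOXC13:C10 pair a HOXC13 N-terminus precedes the HOXC10 homeodomain, and version 2 of each chimera also takes along a conserved stretch just before the homeodomain. HOXC13:C10.2 had an event at 465 sites without HOXC9 (92.3%, 89.6 to 94.3), beside 99.4% of sites with HOXC9 and 99% of all. HOXC13:C10.1 had one at 297 (58.9%, 54.6 to 63.1), beside 90.5% and 88.9% of all, although its list was longer (99311 events against 87315). The differences were -7.10 points (-9.76 to -5.06) and -31.60 points (-35.99 to -27.35).

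The reverse chimeras, with the HOXC13 homeodomain, bound few of the sites. HOXC10:C13.1 had an event at 88 (17.5%), beside 34.7% of sites with HOXC9 and 33.8% of all. HOXC10:C13.2 had one at 82 (16.3%, 13.3 to 19.7), beside 36.6% and 35.6% of all. The differences were -17.20 points (-20.41 to -13.51) and -20.37 points (-23.49 to -16.76). With each list limited to its 10000 best events, the shares were 13.5% for HOXC13:C10.2, 2.98% for HOXC13:C10.1, 1.59% for HOXC10:C13.1, 0.397% for HOXC10:C13.2 and 0.992% for HOXC13, beside 57.7%, 29.3%, 5.07%, 4.04% and 9.53% of sites with HOXC9. The difference for HOXC13:C10.2 was then -44.25 points (-47.13 to -40.84). At sites with no other full-length day 3 factor, HOXC13:C10.2 was present at 44 of 48 without HOXC9 and at 51 of 53 with it.

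**Figure D3:**
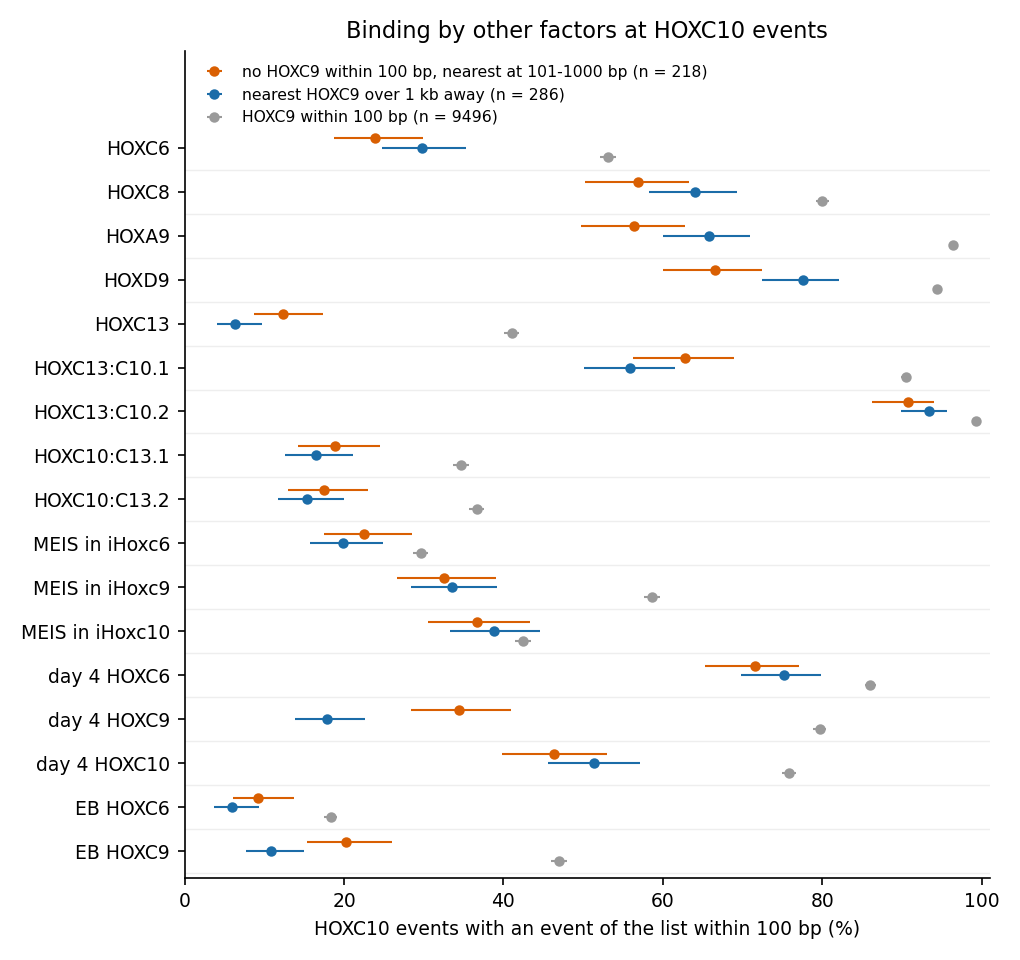
Share of HOXC10 events with an event of each other list within 100 bp (%), with 95% Wilson intervals as bars, for 218 flanked sites, 286 distant sites and 9496 sites with HOXC9; the 2 PBX lists are left out. Sites without HOXC9 lie to the left of sites with HOXC9 in all 17 lists drawn, by least for MEIS in iHoxc10 cells, where the intervals of all 3 groups overlap.

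The share of sites with a MEIS event differed between the lists of the cell lines. In iHoxc10 cells MEIS had an event at 191 sites without HOXC9 (37.9%, 33.8 to 42.2), beside 42.4% of sites with HOXC9 and 42.2% of all. The difference was -4.52 points (-8.77 to -0.10) and depended on rank: among the upper 5000 it was -8.10 points (-17.2 to 1.35), and among the lower 5000 MEIS was more frequent at sites without HOXC9, by 4.83 points (0.06 to 9.85). In iHoxc9 cells MEIS had an event at 167 (33.1%, 29.2 to 37.4), beside 58.7% of sites with HOXC9 and 57.4% of all, a difference of -25.54 points (-29.63 to -21.20). In iHoxc6 cells the values were 106 (17.7 to 24.8%), 29.6% of sites with HOXC9 and 29.2% of all, a difference of -8.58 points (-12.04 to -4.70) that was -1.20 points (-5.00 to 3.15) among the lower 5000.

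MEIS in iHoxc10 but not in iHoxc9 cells was found at 73 sites without HOXC9 (14.5%) and at 379 sites with HOXC9 (3.99%), a difference of 10.49 points (7.66 to 13.86). It held among the upper 5000 (13.49 points, 7.48 to 21.70) and among the lower 5000 (9.63 points, 6.53 to 13.41). MEIS in iHoxc9 but not in iHoxc10 cells was found at 49 (9.72%) and 1923 (20.3%), a difference of -10.53 points (-12.96 to -7.52). It was -12.38 points (-15.12 to -8.94) among the lower 5000, and among the upper 5000 the interval held 0 (-7.15 points, -12.10 to 0.34). Each MEIS list rests on 1 library, and the iHoxc9 list was longer than the iHoxc10 list (22749 events against 12982) and had a higher signal fraction (0.238 against 0.119). The iHoxc6 list was the shortest, with 8219 events and a fraction of 0.077. A difference between the cell lines cannot be told apart from a difference between these lists. No MEIS event was found in any of the 3 lines at 256 sites (50.8%) without HOXC9 and at 3392 (35.7%) with HOXC9.

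PBX events were too few to compare. The PBX lists held 1165 and 848 events with signal fractions of 0.009 and 0.008. In iHoxc9 cells 1 site without HOXC9 had a PBX event, beside 0.31% of all 10000. In iHoxc10 cells 0 of 504 had one, which allows a share of up to 0.595% by the limit of 3 counts and 0.756% by the Wilson interval, beside 0.11% of all.

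At day 4 HOXC10 had an event at more of the sites than HOXC9. HOXC10 at day 4 had an event at 248 sites (49.2%, 44.9 to 53.6), beside 75.9% of sites with HOXC9 and 74.5% of all, a difference of -26.65 points (-31.07 to -22.21). HOXC9 at day 4 had one at 126 (25.0%, 21.4 to 29.0), beside 79.7% and 77% of all, a difference of -54.71 points (-58.38 to -50.66). This share was 34.4% at flanked and 17.8% at distant sites. HOXC10 without HOXC9 at day 4 was found at 157 sites (31.2%) and at 856 sites with HOXC9 (9.01%), a difference of 22.14 points (18.20 to 26.35). The reverse was found at 35 (6.94%) and 1222 (12.9%), both at 91 (18.1%) and 6347 (66.8%), and neither at 221 (43.8%) and 1071 (11.3%). The day 4 HOXC9 list was the longer of the pair, with 44024 events against 22027.

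HOXC6 at day 4 was about as frequent as HOXD9, at 371 sites (73.6%, 69.6 to 77.3), beside 86.0% of sites with HOXC9 and 85.4% of all. The difference was -12.44 points (-16.51 to -8.71). Its day 3 and day 4 lists differed in length (17900 and 69297 events) and in signal fraction (0.075 and 0.308). In EBs that received no patterning signal, HOXC9 had an event at 75 sites (14.9%, 12.0 to 18.3), beside 47.0% and 45.4% of all, a difference of -32.10 points (-35.11 to -28.58). HOXC6 in such EBs had one at 37 (7.34%, 5.37 to 9.95), beside 18.3% and 17.8% of all, a difference of -10.97 points (-13.09 to -8.25).

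Counted together, the sites had fewer factors each. Of HOXC6, HOXC8, HOXA9, HOXD9 and HOXC13, sites without HOXC9 had none at 48, 1 at 80, 2 at 148, 3 at 127, 4 at 95 and all 5 at 6 sites. Sites with HOXC9 had 4 or 5 at 40.2% and 21.2%. Over all 19 other lists the median was 7 lists at a site without HOXC9 and 11 at a site with it. None of the 504 sites lacked an event in every other list, and neither did any of the 9496, so that no site was seen in the HOXC10 list alone.

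**Figure D4:**
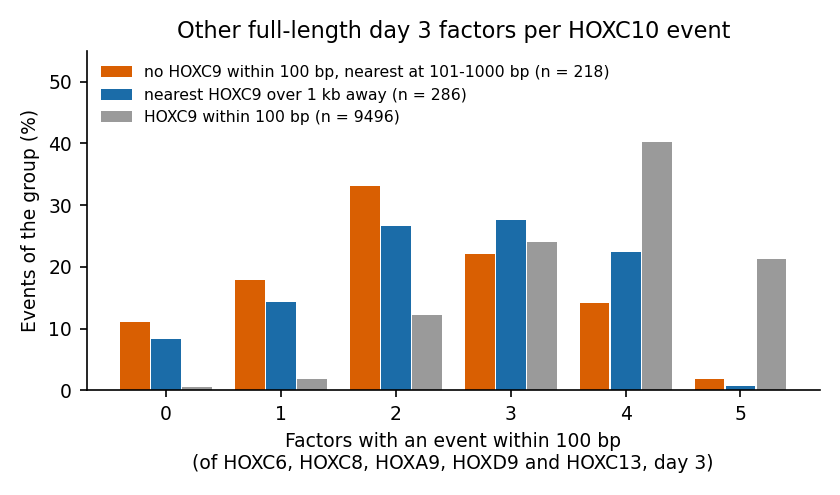
Share of HOXC10 events (%) by how many of the 5 other full-length day 3 factors had an event within 100 bp, for 218 flanked sites, 286 distant sites and 9496 sites with HOXC9. Flanked sites peak at 2 factors, distant sites at 3 and sites with HOXC9 at 4.

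TTTAT, the posterior Hox motif, was less frequent at sites without HOXC9. On either strand within 50 bp it was found at 220 sites (43.7%), beside 55.7% of sites with HOXC9, 55.1% of all 10000 and 33.8% of all non-overlapping windows of that width in the genome. The difference was -12.01 points (-16.40 to -7.54), and among the upper 5000 it was -5.30 points (-14.67 to 3.98). At flanked sites TTTAT was found at 39.9%, a difference of -15.76 points (-22.11 to -9.06). At distant sites it was found at 46.5%, a difference of -9.16 points (-14.94 to -3.29). TTTAT hits per 100 events were counted at -20 to -1 bp, at 0 to 19 bp and, further out, at -300 to -281 bp. They were 16.1, 7.34 and 12.4 at flanked, 18.9, 8.74 and 6.99 at distant sites and 24.6, 15.2 and 10.6 at sites with HOXC9. At flanked sites the bin at -120 to -101 bp held 15.1, so the event position did not stand out there. TAAT, the core of central Hox sites, was found at 358 (71.0%), beside 73.8%, 73.7% of all and 52.6% of genome windows, a difference of -2.79 points (-6.99 to 1.10). TTTAC was found at 18.8% against 25.5%, a difference of -6.67 points (-9.96 to -2.92), with 19.1% in genome windows, and the interval held 0 among the upper 5000 (-6.31 points, -12.74 to 2.17) and at flanked sites (-4.87 points, -9.80 to 1.05).

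Combined, TAAT without TTTAT or TTTAC was found at 161 sites (31.9%) against 23.9%, a difference of 8.01 points (3.99 to 12.29) that was 3.87 points (-3.74 to 12.98) among the upper 5000. All of TTTAT, TAAT and TTTAC were absent from 70 (13.9%) against 8.84%, a difference of 5.05 points (2.24 to 8.39) that was 2.35 points (-0.85 to 6.57) at distant sites. TGATTTAT, the PBX and Hox composite, which contains TTTAT, was found at 23 (4.56%) against 7.10%, a difference of -2.53 points (-4.13 to -0.29), with 0.605% of genome windows. Its interval held 0 among the upper 5000 (-5.29 to 3.18), among the lower 5000 (-4.31 to 0.15), at flanked sites (-4.65 to 1.17) and at distant sites (-4.50 to 0.56). TGACAG, the MEIS motif, was found at 42 (8.33%) against 12.7%, a difference of -4.37 points (-6.58 to -1.55) with 6.4003% of genome windows. Its interval held 0 among the upper 5000 (-8.28 to 2.90), at distant sites (-6.21 to 0.74) and with the motif within 25 bp (-3.46 to 0.29). For the E-box CAGCTG (13.3% against 11.7%), CAGATG (14.7% against 16.5%), ACAAAG (10.9% against 13.24%), CCGCCC (0.992% against 1.47%) and TTTGCAT (2.98% against 2.46%), the interval of the difference held 0. Genome windows held these at 3.67%, 7.67%, 9.30%, 1.01% and 2.52%. Median GC content was 42.6% at both kinds of site. A motif match is a description of the letters, not of occupancy.

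Among the 504 sites, TTTAT was found at 42.2% of 367 with HOXD9 and 47.4% of 137 without it, and TGACAG at 10.4% and 2.92%. TGACAG was also more frequent with HOXA9 (10.3% and 5.18% without) and HOXC13 (11.1% and 8.06%). It was less frequent with HOXC6 (4.38% and 9.81%) and HOXC8 (7.49% and 9.64%). No intervals were computed for these splits. Sites with MEIS in iHoxc10 cells held TGACAG at 13.09% of 191 and the others at 5.43% of 313, and TTTAT at 35.1% and 48.9%.

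Estimated control reads ran from 0.4 to 18.9 with a median of 5.3, beside a median of 5.7 and a maximum of 280.7 at sites with HOXC9. The 1050 events with 10.3 or more control reads held 61 sites (12.1%), beside 10.4% of sites with HOXC9 and 10.5% of all, a difference of 1.69 points (-0.95 to 4.88). Among the lower 5000 the share was higher at sites without HOXC9, at 11.9% against 8.56%, by 3.34 points (0.39 to 6.99). Flanked and distant sites went opposite ways: 9 of 218 flanked (4.13%) and 52 of 286 distant sites (18.2%) were among these, and the difference from sites with HOXC9 was -6.29 points (-8.33 to -2.71) and 7.77 points (3.68 to 12.69). Median log2 fold over control was 5.01 at flanked, 4.32 at distant and 4.97 at sites with HOXC9. At the 61 sites of high control reads HOXD9 was present at 75.4% and HOXC13:C10.2 at 88.5%, and at the other 443 at 72.5% and 92.8%. The part of control reads in the absence of a HOXC9 event was not tested.

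**Figure D5:**
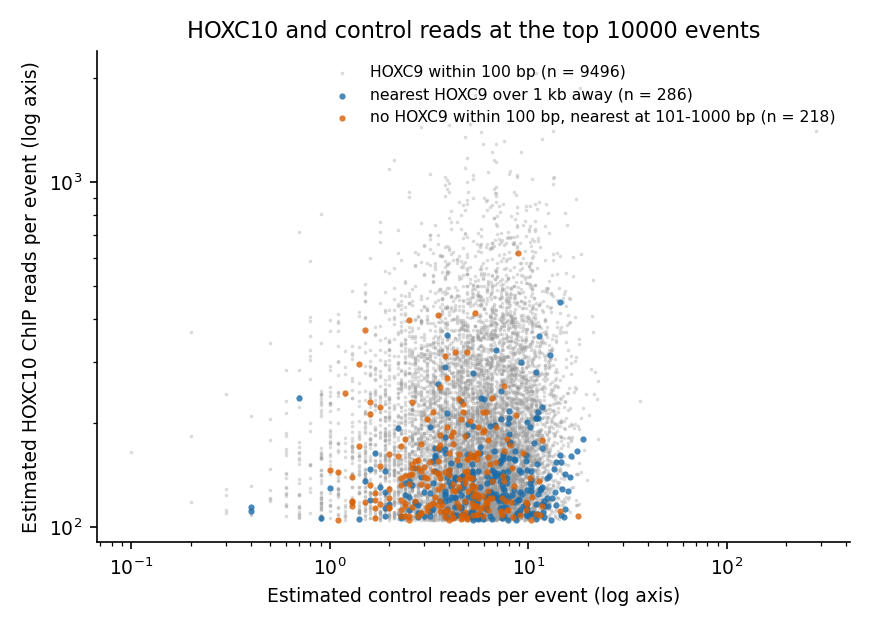
Estimated HOXC10 ChIP reads against estimated control reads for each of the top 10000 HOXC10 events, on logarithmic axes, for sites with HOXC9 (grey, of which 15 with 0 control reads are not drawn), flanked sites (orange) and distant sites (blue). The sites without HOXC9 run from 104.9 to 623.6 ChIP reads inside the cloud of the others, with median control reads of 4.35 at flanked and 6.4 at distant sites.

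Like HOXC10 sites in general, the sites without HOXC9 lay mostly away from promoters. Within 1 kb of an annotated transcription start site (TSS) were 29 of 504 (5.75%), beside 6.74% of sites with HOXC9, 6.69% of all and 5.96% of the genome, a difference of -0.99 points (-2.78 to 1.45). Introns held 256, the space between genes 232 and exons 16, shares of 50.8%, 46.0% and 3.17% beside 51.3%, 44.7% and 4.00% of sites with HOXC9. The median distance to a TSS was 19128.5 bp at sites without and 18409.5 bp at sites with HOXC9. Bases marked as repeats in the reference underlay 30 sites (5.95%) and 7.26% of sites with HOXC9, against 33.4% of the genome. By chromosome the share without HOXC9 ran from 1.82% of top events on X (2 of 110) to 7.11% on 11 (41 of 577).

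By nearest protein-coding TSS the sites were assigned to 410 genes, 1.89% of 21646, and 336 of these (82.0%) were also nearest to a site with HOXC9, beside 3675 (17.0%) of all protein-coding genes. Of the 410, 339 had 1 site only. Robo2, a receptor for the axon repellents of the Slit family, and Zfp608, a zinc-finger gene, had 5 each. Irx3, a homeobox gene of ventral neural progenitors, Isl1, a LIM-homeobox gene of motor neurons, and Pank3, a pantothenate kinase gene, had 4 each. The 4 sites nearest to Pank3 all lay in introns of Slit3, over 49.8 kb of chromosome 11, with 113.2 to 188.1 reads. Of the remaining 10 genes with 3 sites and the most reads, Nr2f2 encodes an orphan nuclear receptor, Rgmb a co-receptor of bone morphogenetic proteins, Efna5 an ephrin ligand, Sox4 a high-mobility-group factor of young neurons and Hnrnpa3 an RNA-binding protein. Pfkp encodes a phosphofructokinase and Sfmbt2 a Polycomb-group protein, and the last 3 were Gm10295, Nyap2 and A230072I06Rik. Each of these 15 genes was also nearest to sites with HOXC9, from 4 for A230072I06Rik to 58 for Zfp608.

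The gene lists give how many members were nearest to a site without HOXC9, and in brackets how many to a site with it. Over all protein-coding genes these shares were 1.89% and 17.0%. A gene far from other genes can be nearest to more sites, and the lists were not matched for this. For motor column and pool genes the count was 5 of 16 (16), namely Foxp1, Etv1, Runx1, Nkx6-1 and Nr2f2. Among ventral progenitor genes it was 7 of 30 (21), among them Irx3, Irx5, Sox2, Neurog1, Foxa2 and Gas1. Of motor neuron identity genes it was 3 of 20 (16), Mnx1, Isl1 and Elavl4. The TALE cofactor genes gave 3 of 11 (8), among them Meis1 and Meis2, and the Hox clusters 4 of 39 (18), among them Hoxa5, Hoxc4 and Hoxc5. Guidance and adhesion genes gave 3 of 19 (14) for Slit, Robo and netrin genes (Slit2, Robo2 and Ntng2), 2 of 22 (10) for Eph receptors and ephrins (Ephb1 and Efna5), 2 of 31 (14) for semaphorins, neuropilins and plexins (Sema3d and Nrp2) and 2 of 13 (12) for type II cadherins (Cdh7 and Cdh20). Notch pathway genes gave 1 of 25 (9), Maml3, retinoic acid genes 1 of 18 (12), Crabp1, Wnt ligands and receptors 1 of 36 (13), Fzd8, and Cdx and caudal axis genes 0 of 15 (7). In every list fewer genes were reached by sites without HOXC9, which are 504 against 9496.

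The site with most reads, 623.6 against 8.9 control reads, lay between genes at chr13:115653671-115653671, 552 kb from Itga1, an integrin gene. A HOXC9 event lay 123 bp away. All 5 other full-length day 3 factors, all 4 chimeras and HOXC6 and HOXC10 at day 4 had an event there, and no MEIS list did. Another site 97.5 kb further on, 558 kb from Isl1 and 158 bp from HOXC9, had 412.7 reads with HOXC6, HOXC8 and MEIS in all 3 lines, but neither HOXA9 nor HOXD9. The third site of this stretch had 270.1 reads.

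At Robo2 the intronic site shown above had 397.9 reads, 2.5 control reads and a HOXC9 event 106 bp away. HOXA9, HOXD9, HOXC13, HOXC13:C10.2, HOXC10:C13.2, HOXC10 at day 4 and HOXC9 in unpatterned EBs were present there. The other 4 sites near Robo2 had 111.4 to 297.7 reads, and 2 of the 5 were distant from HOXC9. Near Irx3 the strongest site (360.2 reads, 3.9 control reads) lay in an intron of the neighbouring gene Fto, 140 kb from the Irx3 TSS and 3041 bp from HOXC9. It had events in 12 other lists, among them MEIS in all 3 lines and both HOXC9 and HOXC10 at day 4. The 3 further sites near Irx3 had 235.1, 156.1 and 152.3 reads, all with HOXC6, HOXC8 and HOXD9.

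Of the other sites in the top 10, 3 were distant from HOXC9. A site in an intron 73.6 kb from Smad7, an inhibitor of TGF-beta signalling, had 448.2 reads and 14.4 control reads. One 32.3 kb from St6galnac3, a sialyltransferase gene, had 358.6 reads, and one 749 kb from Bcl11a, a zinc-finger gene of neurons and blood, had 326 reads. HOXA9, HOXD9, both HOXC13:C10 chimeras, MEIS in iHoxc10 cells and HOXC10 at day 4 were present at each of these 3, and HOXC9 at day 4 only at the last. The flanked ones lay 294 kb from Ednrb, an endothelin receptor gene (415.8 reads), 687 kb from Arrdc3, an arrestin-domain gene (371.5 reads), and 295 kb from Api5, an inhibitor of apoptosis (322 reads). The Api5 site had an event in 14 other lists, the most of any of the 504.

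Besides the top site, 5 sites had an event of every other full-length day 3 factor, and the 4 with most reads had 113.4 to 173.8. They were nearest to Efna5 (in its intron, 173.8 reads), Il5ra, an interleukin receptor gene, Fbxw8, an F-box gene, and Nt5dc1, a nucleotidase gene whose TSS was 1.59 kb away. The sites nearest to Hoxc5, Hoxa5 and Hoxc4 were flanked by HOXC9 at 117, 165 and 380 bp. Those at Hoxc5 (179.3 reads, in an exon 111 bp from the TSS) and Hoxa5 (179.9 reads, 373 bp from the TSS) were among the few at promoters, and each had HOXC9 and HOXC10 at day 4. The sites in an exon of Foxa2 (121.4 and 114.6 reads), a floor plate gene, both had events of HOXC8 and of HOXC6 in unpatterned EBs and of no other list.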

How the data were processed

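The authors aligned reads to mm10 with Bowtie 1.0.1, keeping single best hits, and pooled the libraries of a condition to call events with MultiGPS, using a control and a q-value limit of 0.001. Picard 2.8.2 is also named in the submitters' processing notes. For every event the deposited lists hold ChIP and control reads as an estimated count each, with enrichment and its q-value both given in log2. The deposited position tracks, with a capped score, were not used. Columns of edgeR (3.22.5) comparisons between conditions, which hold the authors' log2 fold changes and q-values, were not used either. The comparison columns show that the day 3 lists of HOXC6, HOXC9, HOXC10, HOXA9, HOXD9 and HOXC13 came from 1 joint run of the caller, which favours shared positions.

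Groups came from the labels of the 42 samples, which form 23 groups, and all 21 lists were used. The libraries in their headers held 5.04 to 32.9 M reads with signal fractions of 0.008 to 0.527. Members and gene lists were chosen with earlier results of these data known. The flanked and distant groups were set after distances were seen. Distances, shares and intervals were computed with Python 3.11.15, pandas 2.3.3 and numpy 2.4.6, and the functions were tested on simulated positions and sequences. Wilson and Newcombe 95% intervals cover counting error only and treat sites as independent. Whether an interval excluded 0 served only to describe differences and follow them through the alternative settings. It is not a test over samples. Sequence came from RefSeq GRCm38, the same assembly as mm10: all deposited HOXD9 sequences on chromosomes 1 to 19 and X lay within 250 bp of their event on it. TSSs, exons and introns are those of GENCODE mouse release 21. Named regions were the 10 sites with most reads, up to 5 with every other full-length day 3 factor, and up to 5 with no other list (none existed). Named genes were those nearest to these regions, the 15 nearest to most sites, and the list members. Exons of Foxa2 and introns of Slit3 and Fto were singled out after their values were seen. Some members of the gene lists are not reported here.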

Additional observations from a re-analysis of the deposited data

How the results depend on the processing

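The rule kept 504 sites. It kept 109 of the top 5000 events, 5009 of all HOXC10 events, 962 with a limit of 50 bp, 320 with 500 bp, and 2530 when the HOXC9 list was shortened to the length of the HOXC10 list. Every difference in binding other than MEIS in iHoxc6 and iHoxc10 cells and the PBX lists kept its direction with an interval clear of 0 in all 15 alternatives, from -52.28 to -12.97 points for HOXA9 and from -62.65 to -35.06 points for HOXC9 at day 4. MEIS in iHoxc6 cells gave -1.20 points among the lower 5000. For MEIS in iHoxc10 cells the interval held 0 among the upper or top 5000 (-8.10 points), at distant sites (-3.61), at flanked sites (-5.72), with 200 bp (-3.56) and over all sequences (-4.38), and the difference turned to 4.83 points among the lower 5000. The share with high control reads was higher at distant sites (7.77 points), with 200 bp (5.71), with 500 bp (7.55) and with the shortened HOXC9 list (2.29), and lower at flanked sites (-6.29), when ranked by q-value (-6.44), over all events (-4.86) and with 50 bp (-2.65). The promoter difference turned to 3.10 points over all events and 1.63 with the shortened list. TTTAT gave -5.30 points in the top 5000, TAAT gave -2.82 over all events, -2.97 with 50 bp and -2.55 with the shortened list, and CCGCCC turned to 0.81 over all events. TGACAG gave -1.91 within 25 bp and, at distant sites, -3.26. TGATTTAT gave -2.55 at distant and -2.51 at flanked sites, -2.53 with 200 bp, -2.68 with 500 bp and -0.71 with the shortened list, each with an interval that held 0. The split into flanked and distant sites was chosen after seeing the data. The cause of these changes was not tested. No paired analysis was possible because the lists pool their libraries, and no replicate could be left out for the same reason.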
